A study of Mus musculus with 14 samples.

Results

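Open chromatin at 9 genes of the antioxidant response, Nfe2l2, Keap1, Hmox1, Nqo1, Gclc, Gclm, Txnrd1, Slc7a11 and Srxn1, was followed through 72 h of hypoxia in 4T1, a line grown from a mouse mammary tumor. Every peak from 20 kb before to 20 kb after the body of one of these genes was taken, and overlapping or touching peaks of the different lists were merged into regions, which gave 55 regions of 108795 in all. The measurement was bulk ATAC-seq, in which a transposase marks accessible DNA, on 14 samples in 7 groups of 2 replicates: 4T1 cells in normoxic culture, and 4T1 cells kept in 1% O2 for 6, 12, 24, 36, 48 or 72 h and fixed in hypoxia, with no other treatment named. The labels state that no antibody was used, whereas the text of the study names HIF1α staining of the fixed cells before the assay. The labels give the normoxic culture no oxygen level of its own, and their treatment text repeats the 1% protocol for it, while a legend of the study gives it a level below that of air and above that of the hypoxic cultures. Each group was available as 1 peak list made after the reads of its replicates had been pooled, so no value below has a replicate error, no difference between conditions was tested, and every difference is a description of these 7 lists. In a bulk assay of pooled cells, a site open in fewer cells and a site less open in every cell cannot be told apart.

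The transcription factor NRF2, encoded by Nfe2l2, is held in the cytoplasm and marked for degradation by KEAP1, which senses electrophiles and oxidants through its cysteines. When KEAP1 is modified, NRF2 enters the nucleus, pairs with a small MAF protein and binds the antioxidant response element (ARE) of genes for heme breakdown, quinone reduction, glutathione synthesis, the thioredoxin system and cystine uptake. Many tumor cells keep this program active.

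Every list held a promoter peak at each of the 9 genes, a promoter being the stretch within 1 kb of an annotated start. The background for this count was 46.7% of 22238 protein-coding genes. Of the 55 regions, 9 were these promoters, 3 were promoters of neighbouring genes (Hnrnpa3 beyond Nfe2l2, Mcm5 beyond Hmox1 and Dnttip2 beyond Gclm) and 43 were distal, 19 of them in introns. The ARE is the element through which NRF2 acts, so its matches are given first.

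The ARE core was searched as TGACNNNGC on both strands, from 100 bp before to 100 bp after the strongest summit of a region. It was present in 12 of the 55 regions (21.8%), against 12.7% of all 108795 regions and 9.38% of windows of the same length around annotated starts. At the promoters of 4 of the 9 genes, Txnrd1, Srxn1, Gclm and Keap1, it lay within 100 bp of the summit, against 11.8% of all promoter regions. Of the distal regions 7 of 43 held it, against 12.8% of all distal regions. The longer form TGACTCAGC, which also holds an AP-1 site (TGANTCA), was near the summit of 2 of the 55 regions, against 2.92% of all regions, and both lay upstream of Hmox1. The upstream Hmox1 regions are printed because mouse Hmox1 is known for a pair of upstream enhancers built on such elements, which are shown on the gene's strand of NCBIM37 (mm9) with each ARE core in capitals, here as the reverse complement of TGACNNNGC:

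Hmox1, 9.63 kb upstream, chr8:77607764-77607964, plus strand: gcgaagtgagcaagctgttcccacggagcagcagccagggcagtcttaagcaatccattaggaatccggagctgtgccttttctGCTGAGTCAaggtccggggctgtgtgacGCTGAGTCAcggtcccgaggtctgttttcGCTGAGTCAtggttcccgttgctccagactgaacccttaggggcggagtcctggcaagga

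Hmox1, 3.92 kb upstream, chr8:77613470-77613670, plus strand: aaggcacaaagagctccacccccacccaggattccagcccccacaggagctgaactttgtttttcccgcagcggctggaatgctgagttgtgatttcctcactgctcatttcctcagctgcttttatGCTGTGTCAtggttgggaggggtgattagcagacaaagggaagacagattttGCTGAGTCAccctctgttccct

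The first window holds 3 copies of TGACTCAGC, which lie 12 bp before and 16 and 45 bp after the summit, and the second holds 2 ARE cores, of which 1 is TGACTCAGC. The second window and the Gclc site below were added after their values were seen, because they fall outside the rule for printed sequences. The promoter matches are given as 29 bases each, read on the strand on which the core is TGACNNNGC. They differ in the bases between TGAC and GC:

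Keap1 promoter, chr9:21043274-21043302, plus strand: cgggtcacggTGACTAAGCacagcgcgcc

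Gclm promoter, chr3:121948331-121948359, minus strand: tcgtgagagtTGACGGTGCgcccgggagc

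Txnrd1 promoter, chr10:82321849-82321877, minus strand: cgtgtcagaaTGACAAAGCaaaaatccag

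Srxn1 promoter, chr2:151931278-151931306, minus strand: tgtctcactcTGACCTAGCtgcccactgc

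Gclc, 3.69 kb upstream, chr9:77598542-77598570, minus strand: cgcctcaccgTGACTCAGCactctgcgcg

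None of the 4 promoter matches is TGACTCAGC, whereas the Gclc site is; centred 97 bp from its summit, it crosses the edge of the 100 bp window and is not among the 12. The promoters of Nqo1, Hmox1 and Gclc held no match to these letters over their whole peaks, which says only that the letters are not there, and those of Nfe2l2 and Slc7a11 held 2 each outside the window. The element CARE (TGATGNAA), a site for ATF4 with C/EBP partners that is known in the Slc7a11 promoter as an amino acid response element, was near the summit of 2 of 55 regions, against 3.53% of all regions and 2.09% of starts. At Slc7a11 there were 2 copies, facing each other, printed in capitals on the gene's strand because this promoter is described below:

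Slc7a11 promoter, first copy, chr3:50247584-50247611, minus strand: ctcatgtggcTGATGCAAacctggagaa

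Slc7a11 promoter, second copy, chr3:50247565-50247592, minus strand: cctggagaatTTGCATCAtcatgcagcc

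The strength of a peak is given as fold enrichment, as the authors' peak caller wrote it. It is the ratio of the reads at the summit to the local background of the same pooled reads, with 1 read added to each. The added read lowers the ratio most where the background is low, as in normoxia. Depth and signal over background differed between lists. Background reads, as recovered from the deposited statistics, ranged from 1.85 to 3.25 in the hypoxia lists, highest at 6 h, against 0.926 in normoxia. The lists held 49006 to 81732 peaks. At regions with a peak in all 7 lists, median summit reads over background were 28.1 in normoxia. In hypoxia they were 9.53 (6 h) to 22.2 (12 h). The median log2 ratio of hypoxia to normoxia over the 36113 regions with a peak in all 7 lists was -0.41, 0.07, 0.04, -0.13, -0.02 and -0.23 in order of time from 6 h. These medians were subtracted, and the result is called the centred log2 ratio. The labelled cell type was checked on promoter peaks: 7 of 8 epithelial markers had one in all 7 lists and Cldn7 had none, while Ptprc, Cd3e and Itgam, which mark immune cells, had none in any list. Cd14 had one in all 7, Lyz2 in 1, and of 6 fibroblast and endothelial markers none had one in all 7, with Col1a1 in 5 lists and Pecam1 in 3.

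The sensor pair differed in strength. Nfe2l2 (chr2:75513570-75542698) had a promoter enrichment of 9.34 in normoxia and 7.82, 9.97, 8.55, 8.43, 9.49 and 9.57 at the 6 hypoxia times, in order from 6 to 72 h (as for every gene below). Relative to all shared regions the mean centred log2 ratio was 0.05, with the highest value, 0.27, at 72 h. In recovered summit reads, each list scaled by its genome background and centred in the same way, the mean turned to -0.19, with 5 of 6 times below 0. Keap1 (chr9:21034174-21043776) had a weaker promoter peak, with its summit in an untranslated part of an exon, at 5.69 in normoxia and 3.77, 5.25, 6.74, 4.98, 5.59 and 3.86 at the same times. Its mean centred ratio was -0.095, with 5 of 6 times below 0. In reads the direction turned, with a mean of 0.49 and all 6 times above 0, from 0.30 to 0.64, though no counting interval left out 0. The Nfe2l2 promoter lay between the 10th and 90th percentiles of all shared promoter regions in every list, and the Keap1 promoter lay under the 10th percentile at 6, 12 and 72 h.

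Around Nfe2l2, a region in an intron 19.0 kb from the 5′ end was as strong as the promoter, between 6.63 (6 h) and 12.5 (48 h) in hypoxia, against 9.91 in normoxia. The strongest region in the window besides its promoter belonged to Hnrnpa3, an RNA-binding protein gene, 45.5 kb from the 5′ end, with 10.1 to 11.2 in hypoxia, against 11.7 in normoxia. It held an ARE core 96 bp from its summit. A region 11.6 kb upstream of Nfe2l2 had no peak in normoxia and none at 6 and 36 h, and reached 5.39, 4.57, 4.55 and 8.15 at 12, 24, 48 and 72 h. Beyond the 3′ end of Keap1, a region 14.0 kb from the 5′ end was above the median of the shared regions at every time. Its enrichment was 6.72 in normoxia and 6.01, 9.18, 10.3, 7.47, 7.98 and 7.18 in hypoxia, with centred log2 ratios from 0.25 to 0.57 and a mean of 0.345. In recovered summit reads the same region averaged 0.70 and passed the threshold for a higher region that is given below, and the counting intervals of its reads left out 0 at 3 of 6 times. A region 2.26 kb upstream of Keap1 had its strongest peak in normoxia (6.10), with 3.55, 3.76 and 4.00 at 6, 12 and 48 h and none at 24, 36 and 72 h.

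Hmox1 (chr8:77617490-77624495) encodes heme oxygenase 1, which opens the heme ring and releases iron, carbon monoxide and biliverdin. Its promoter had 9.70 in normoxia and 7.34, 10.1, 10.9, 8.73, 8.70 and 7.84 in hypoxia, a mean centred ratio of -0.02. The upstream region with 3 copies of TGACTCAGC (chr8:77607447-77608261) was the strongest at this gene in normoxia, at 13.0, and all 6 hypoxia lists were lower, at 8.17, 10.4, 10.1, 10.1, 9.07 and 8.87. Its centred ratio was below 0 at all 6 times, between -0.50 and -0.24, with a mean of -0.35 at percentile 8.98 of the shared regions. In reads its mean was -0.085, with 36 h (0.09) and 72 h (0.04) above 0, and no counting interval left out 0. The region 3.92 kb upstream was called only at 12, 48 and 72 h, at 2.28, 3.24 and 2.77, among the lowest values at these genes. It lay in a raised local background, so that 13 summit reads would have been needed for a call in normoxia, and 26.7 were expected there from the lists that had the peak.

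Another upstream region of Hmox1, 5.83 kb away, with an ARE core 78 bp from its summit, had a peak in normoxia (3.20) and at 12, 24, 48 and 72 h (4.11, 5.47, 2.68 and 3.42) and none at 6 and 36 h. Beyond the gene, a region in an intron of Mcm5, a subunit gene of the replicative helicase, 18.9 kb from the Hmox1 5′ end, had 4.65 in normoxia and 6.19, 7.32, 7.36, 5.84 and 5.22 at 6 to 48 h, and was lower only at 72 h, at 3.41. Its centred ratio was 0.82 at 6 h, at percentile 98.6 of the shared regions, and -0.22 at 72 h.

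**Figure D1:**
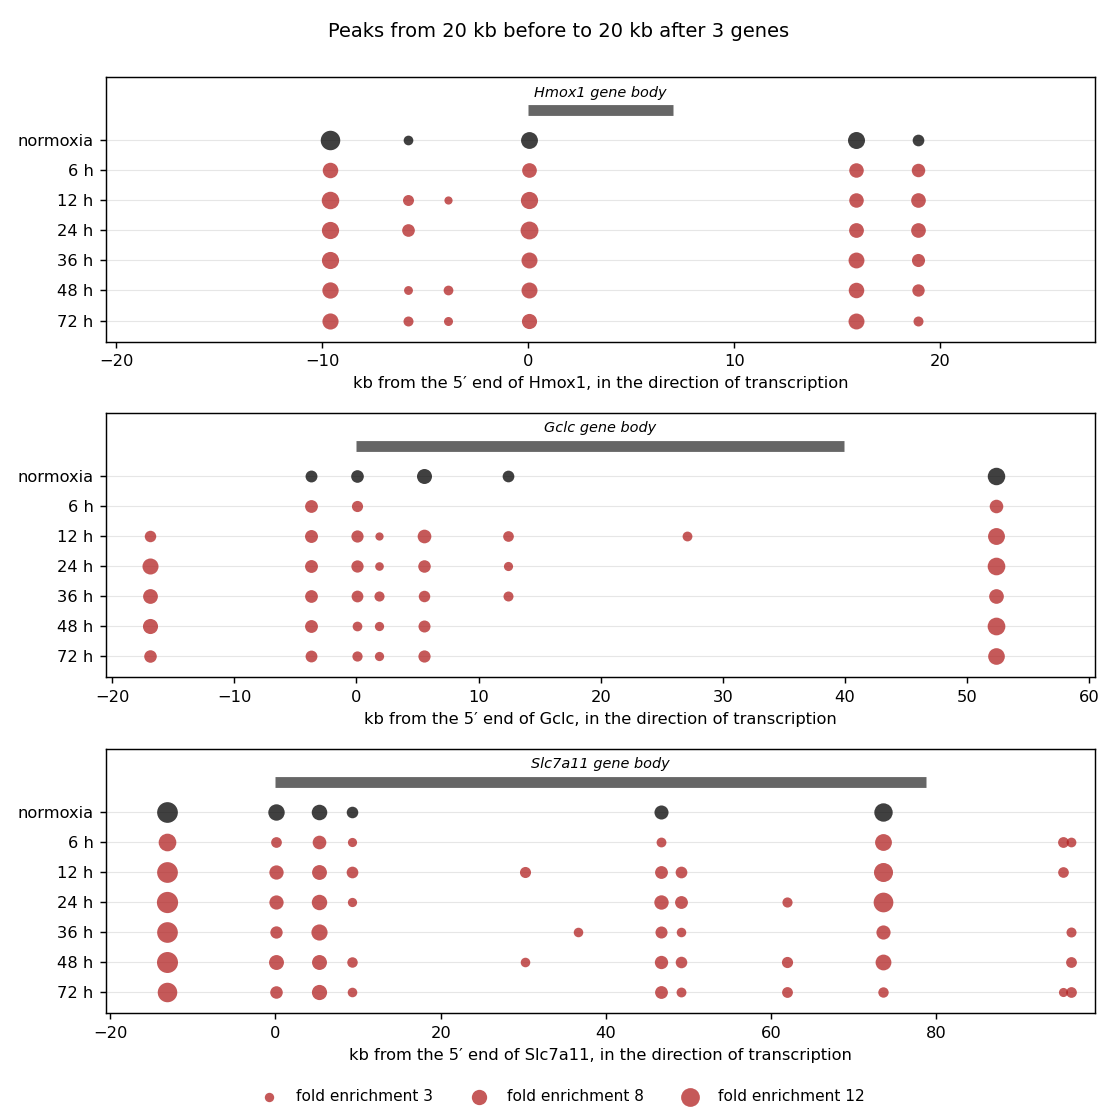
Peaks around Hmox1, Gclc and Slc7a11 by distance from the 5′ end of each gene (x axis, kb) in the 7 lists (y axis, normoxia in black and hours at 1% oxygen in red); the area of a point is the fold enrichment and the bar is the gene body. The Hmox1 region 3.92 kb upstream appears at 12, 48 and 72 h only, and the Gclc region 16.9 kb upstream from 12 h on.

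Nqo1 (chr8:109912125-109927106) encodes a quinone reductase that uses NADH or NADPH and is a common readout of NRF2. Its promoter stood at 9.83 in normoxia and was lower in all 6 hypoxia lists: 5.50, 8.85, 5.37, 6.74, 8.88 and 5.96. The centred ratio was below 0 at every time and lowest at 24 h, at -0.91 (percentile 0.795), from 15 summit reads at 24 h and 22 in normoxia, with a counting interval of the read ratio from -2.17 to -0.11. The mean in reads was -0.34, with 6 h above 0 (0.19). An intronic region 13.5 kb from the 5′ end had 6.50 in normoxia, 10.2 at 12 h and 7.96 at 48 h, lower values at the other times and no peak at 36 h. It was the only other region of Nqo1 called in more than 1 list.

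The glutathione genes showed different windows. Gclc (chr9:77602342-77642292) and Gclm (chr3:121948475-121972902) encode the catalytic and the modifier subunit of glutamate-cysteine ligase, the rate-limiting enzyme of glutathione synthesis. The Gclc promoter was among the weakest of the 9, at 5.45 in normoxia and 4.26, 5.09, 5.13, 4.73, 3.22 and 3.57 in hypoxia, with a mean centred ratio of -0.24 and its lowest value, -0.74, at 48 h. The Gclm promoter was among the strongest, at 10.4 in normoxia and 8.96, 9.47, 9.77, 10.9, 8.94 and 7.62 in hypoxia, with a mean of -0.06. Gclc had 8 regions in its window and Gclm 2, the other being the Dnttip2 promoter.

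A region 16.9 kb upstream of Gclc (chr9:77585101-77585782) was the strongest of all 19 regions without a normoxia peak. It was absent in normoxia and at 6 h and had 4.49, 8.78, 7.45, 7.78 and 5.37 from 12 to 72 h. At the depth of the normoxia list 5 summit reads would have been called there, and 15.3 were expected from the 5 lists with a peak, the largest excess of any normoxia absence at these genes (3.05 times). Expected reads come from lists chosen for having the peak and so run high. The region 3.69 kb upstream with TGACTCAGC had an enrichment of 4.82 in normoxia and 5.59, 5.71, 5.66, 5.54, 5.65 and 4.79 in hypoxia, and all 6 centred ratios were above 0, with a mean of 0.30. Beyond the 3′ end a region 52.4 kb from the 5′ end was the strongest of Gclc, at 6.28 to 10.7 in hypoxia, against 10.4 in normoxia.

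Slc7a11 (chr3:50168858-50247535) encodes xCT, the light chain of the cystine and glutamate exchanger, which brings in the cystine from which cysteine for glutathione is made. Its promoter had the lowest mean centred ratio of all 27 shared regions, -0.54 (percentile 2.48). The enrichment was 9.18 in normoxia and lower in all 6 hypoxia lists, at 3.93, 6.94, 6.90, 5.18, 7.58 and 5.35, and the centred ratio ran from -0.82 at 6 h to -0.26 at 48 h. At 6 and 36 h another peak of this promoter had a higher enrichment, 3.965 and 5.96, but a lower -log10 q, and was not used. The rank of the promoter among the 27 was not recounted with it. In reads the mean was -0.575 with all 6 times below 0, and the counting intervals left out 0 at 6 h (-1.84 to -0.33) and 12 h (-1.43 to -0.18) and held 0 at the other 4 times. The value passes the threshold for a lower region when the 48 h list is left out, at -0.60.

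Not all Slc7a11 sites followed its promoter. The region 13.1 kb upstream was the strongest of the 55, at 14.6 in normoxia and 10.6, 14.7, 15.3, 14.6, 15.0 and 13.0 in hypoxia, with a mean centred ratio of 0.02. An intronic region 5.28 kb from the 5′ end with an ARE core 93 bp from its summit stood at 6.36 to 8.91 in hypoxia, against 8.24 in normoxia, with a mean of 0.015. A region 73.5 kb from the 5′ end, with its summit in an untranslated part of an exon, had centred ratios of 0.15, 0.025 and 0.16 at 6, 12 and 24 h and negative ones later. Its enrichment was 11.5 in normoxia and 9.64, 12.3, 13.3, 6.83, 8.53 and 3.69 in hypoxia. At 72 h its centred ratio was -1.41, at percentile 0.127, from 12 summit reads at 72 h and 23 in normoxia, with a counting interval of the read ratio from -2.47 to -0.26. Slc7a11 had the most regions of these genes, 12, and also the most without a normoxia peak, 6. That share is near the 46.8% of all regions that had a hypoxia peak and none in normoxia. Among the 6 was one 49.1 kb from the 5′ end, called at the 5 times from 12 to 72 h (4.68, 5.63, 3.11, 4.57 and 3.32).

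Txnrd1 (chr10:82296696-82360469) encodes the cytosolic thioredoxin reductase and Srxn1 (chr2:151931252-151937112) sulfiredoxin, which restores overoxidized peroxiredoxins. Txnrd1 had no peak at its most 5′ start, and its promoter peak lay at an internal start, 25.1 kb further in. It had 10.25 in normoxia and was lower in all 6 hypoxia lists, at 7.68, 9.18, 7.77, 7.95, 8.27 and 6.74, with a mean centred ratio of -0.26. In recovered summit reads the mean was -0.67, past the threshold for a lower region, and the counting intervals left out 0 at 5 of 6 times. The Srxn1 promoter had 9.50 in normoxia and 6.71, 8.14, 9.43, 9.16, 9.04 and 8.57 in hypoxia, with a mean of -0.055, and in reads -0.345 with all 6 times below 0.

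Within Txnrd1 another intronic site lay on the other side of normoxia from the promoter. The region 18.0 kb from the 5′ end was higher in all 6 hypoxia lists, at 8.11, 11.9, 10.9, 9.32, 9.66 and 9.09, against 7.65 in normoxia, and its centred ratios of 0.35 to 0.56 gave a mean of 0.46 (percentile 92.6), the highest of the 27. In recovered summit reads it averaged 0.705, past the threshold, from 14 reads in normoxia, and the counting interval left out 0 at 1 of 6 times. Beyond the gene, a region 80.1 kb from the 5′ end had 13.4 in normoxia and 6.71, 13.1, 11.4, 10.1, 11.2 and 8.08 in hypoxia, with all 6 centred ratios below 0 and a mean of -0.33, or -0.61 in reads, past the threshold for a lower region, with counting intervals that left out 0 at 2 of 6 times. At Srxn1, a region 6.64 kb from the 5′ end was lower in all 6 hypoxia lists, at 3.01, 7.22, 4.03, 3.97, 6.38 and 6.19, against 7.56 in normoxia, with a mean centred ratio of -0.52. It passes the threshold when the 12 h list (-0.59) or the 72 h list (-0.61) is left out. In reads its mean was -0.28, with 12 h (0.19) and 72 h (0.11) above 0, and no counting interval left out 0.

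**Figure D2:**
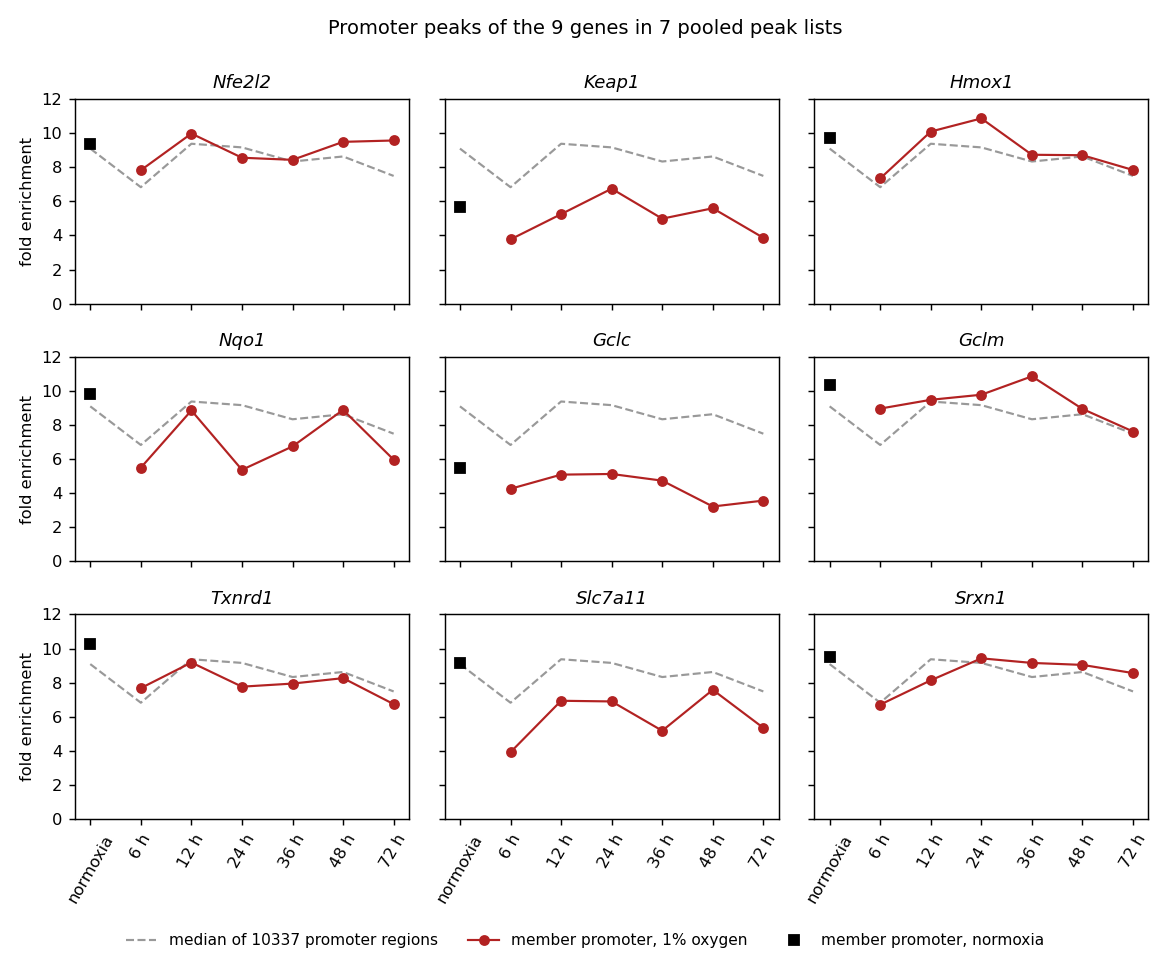
Fold enrichment (y axis) of the promoter peak of each gene in normoxia (black square) and after 6 to 72 h at 1% oxygen (red points, x axis), with the median of the 10337 promoter regions with a peak in all 7 lists as a dashed line. The Keap1 and Gclc promoters lie under the dashed line in every list. Before any centring, those of Nqo1, Gclc, Txnrd1, Slc7a11 and Srxn1 are lower in all 6 hypoxia lists than in normoxia, Srxn1 barely so at 24 h (9.43 against 9.50). The uncentred median log2 ratio of all shared regions was itself -0.41 at 6 h and -0.23 at 72 h, but 0.07 at 12 h. How many of the 10337 promoter regions are lower in all 6 was not counted.

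Over the 55 regions, 27 (49.1%) had a peak in all 7 lists, against 33.2% of all regions. The difference was smaller among distal regions, where it was 15 of 43 (34.9%) against 27.7%, while 65.6% of all promoter regions had one in all 7. In 19 regions (34.5%) a peak was called at 1 or more hypoxia times and not in normoxia, against 46.8% of all regions. The peaks of these 19 regions were weak, with a median enrichment of 3.50 and a range of 2.13 to 8.78, against a median of 7.83 for the hypoxia peaks of the 27 shared regions. A gap of this kind is built into the grouping, because a weak peak is more easily missed in a list. The same medians were not taken over all regions. No region lacked a normoxia peak and had one throughout hypoxia, against 1.5% of all regions (1630), and 3 (5.45%) had one at 5 times, against 3.12%: the Gclc regions 16.9 kb upstream and 1.81 kb inside the gene and the Slc7a11 region at 49.1 kb, each missing at 6 h. Without the 6 h list, these 3 were in every hypoxia list left. Conversely, 9 regions (16.4%) had a normoxia peak and lacked one at some hypoxia time, against 20.0% of all regions, and none was found in normoxia only, against 2.75%.

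Peaks at these genes numbered 36 in normoxia and 33, 48, 43, 37, 47 and 42 at 6 to 72 h, the same order as that of the whole lists, which were shortest at 6 h and longest at 12 h. All 19 regions missing in normoxia were expected, from the lists that had them, to reach the reads needed for a call there, and 3 of them at 2 times that number or more. The same held for all 7 regions missing at 12 h and all 12 missing at 24 h, 2 of each at 2 times the number, so the normoxia count is not particular to normoxia. At 36, 48 and 72 h it held for 15 of 18, 7 of 8 and 9 of 13, and at 6 h for 4 of 22. The part of depth in these patterns was not tested further.

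**Figure D3:**
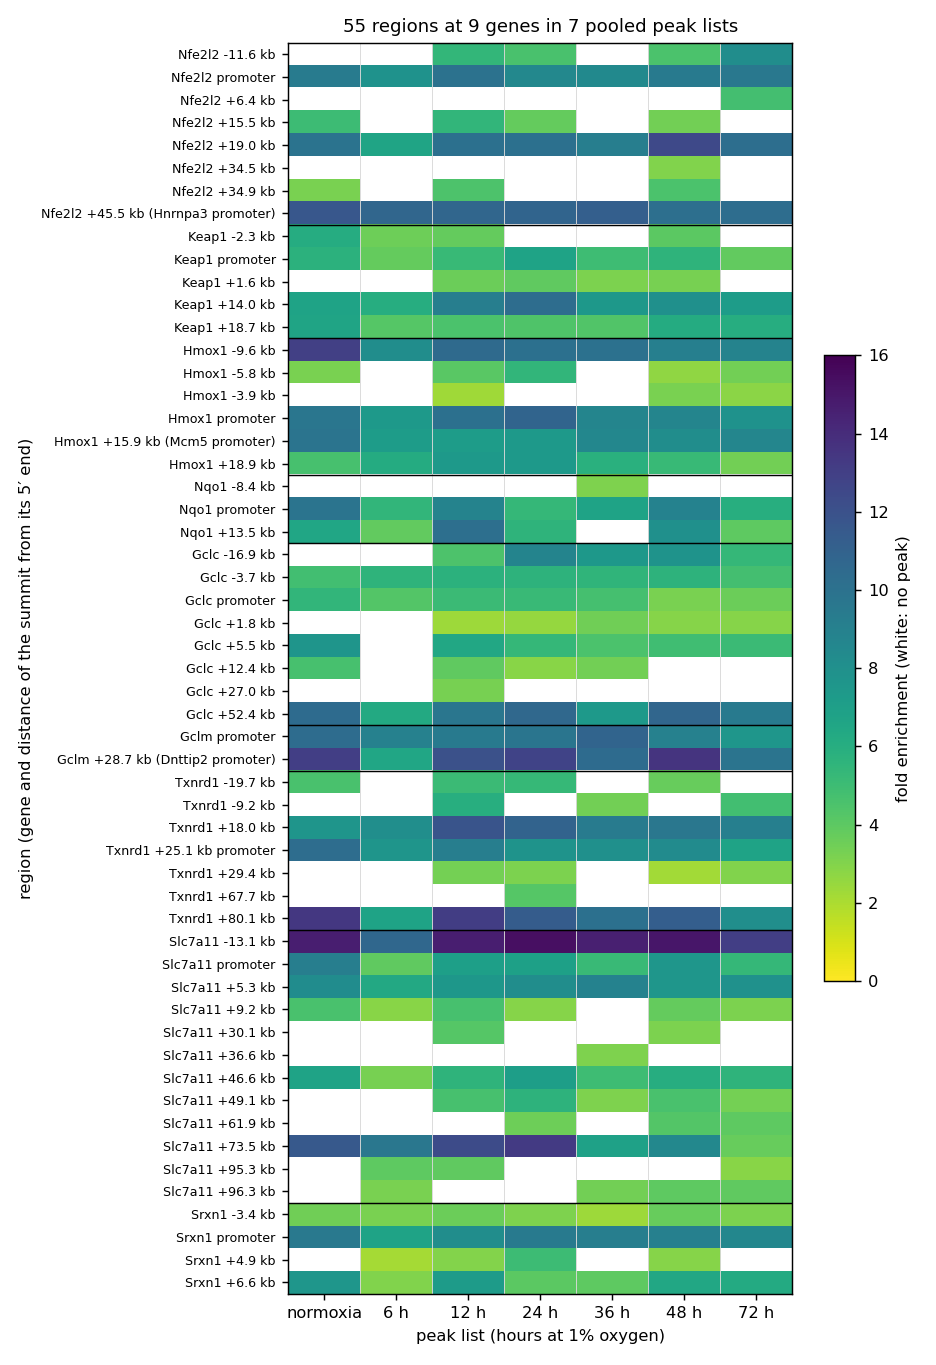
Fold enrichment (color, white where no peak was called) of the 55 regions (y axis, by gene and distance from its 5′ end in kb) in normoxia and after 6 to 72 h at 1% oxygen (x axis). The 27 regions filled in every column include all 9 promoters, and the regions without a normoxia peak are light, with the Gclc region 16.9 kb upstream the strongest of them.

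Strength was compared in the 27 shared regions. A region was called higher or lower in hypoxia when all 6 centred ratios lay on one side of 0 and their mean was at least 1.5-fold (0.585 on the log2 scale). No region was called higher, against 3.79% of the 36113 shared regions, and none lower, against 1.65%. These shares hold for fold enrichment, and those in recovered reads were not counted over all shared regions. Nearest to the threshold were the Slc7a11 promoter and the Srxn1 region at 6.64 kb on the lower side and the Txnrd1 region at 18.0 kb on the higher side. The median of the mean centred ratio was -0.095, against -0.01 over all shared regions, and 19 of 27 regions were below 0, against 51.6% of all. By time, the median over the 27 was -0.04, -0.17, -0.07, -0.07, -0.095 and -0.04 from 6 to 72 h.

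Among the promoters the values leaned to one side. The mean centred ratio was below 0 at 8 of 9, all but Nfe2l2, with a median of -0.095, against 56.5% below 0 and a median of -0.03 over 10337 shared promoter regions. In recovered reads 8 of 9 were again below 0, with a median of -0.19, but the exception was Keap1 and not Nfe2l2. The 3 promoters of neighbouring genes were also all below 0 in reads, with a median of -0.32. The share in reads over all shared promoter regions was not counted, so the lean cannot be set against it. In fold enrichment the 10th percentile of the 10337 promoter regions was -0.30, and only Nqo1 (-0.43) and Slc7a11 (-0.54) lay under it. In the hypoxia lists 4 to 6 of the 9 promoters were under the median enrichment of all shared promoter regions of that list, and in normoxia, where that median was 9.09, 2 were. Summit reads were compared 162 times at the 27 regions. The 95% counting interval (exact Clopper-Pearson) lay below 0 in 16 (9.88%) and above 0 in 7 (4.32%). Over all shared regions the shares were 6.38% and 5.22%. The comparisons of a region share its normoxia read count, and 5 of the 16 came from the Txnrd1 promoter. These intervals cover counting error only, because the replicates were pooled and their spread is not in them.

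**Figure D4:**
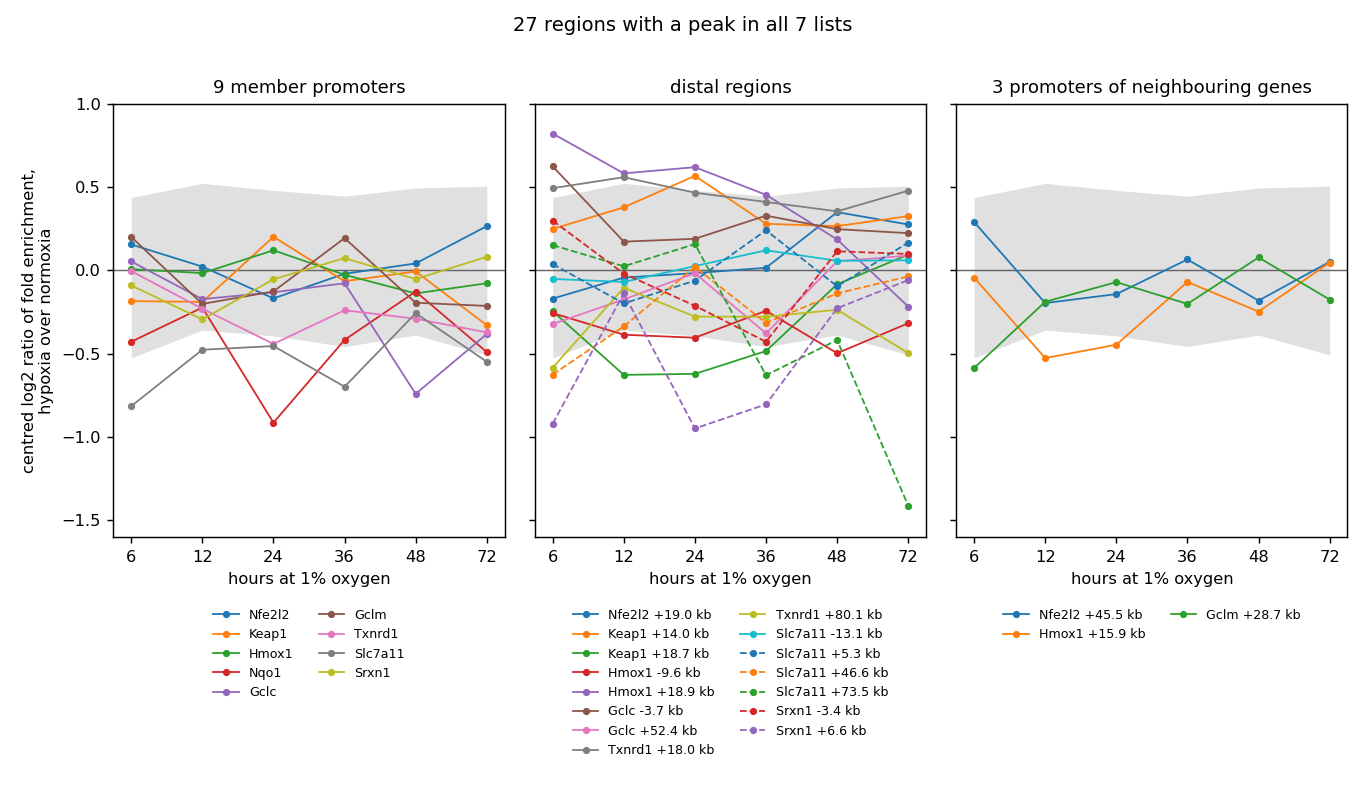
Centred log2 ratio of fold enrichment, hypoxia over normoxia (y axis), by hours at 1% oxygen (x axis) for the 27 regions with a peak in all 7 lists, as 9 promoters (left), 15 distal regions (middle) and 3 promoters of neighbouring genes (right). Grey marks the 10th to 90th percentile of all 36113 shared regions; the Slc7a11 region at 73.5 kb reaches -1.41 at 72 h and the Hmox1 region at 18.9 kb 0.82 at 6 h.

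Other motifs were counted in the same windows. An AP-1 site (TGANTCA, which overlaps the longer ARE) lay within 100 bp of the summit in 16 regions (29.1%), against 37.5% of all regions, and a HIF core (ACGTG or GCGTG) in 15 (27.3%), against 23.6%. Of the 9 promoters 4 held the HIF core, against 47.6% of all promoter regions and 37.6% of annotated starts. GC content near the summit had a median of 67.7% at the 9 promoters, against 62.2% at all promoter regions, and of 48.3% at the 43 distal regions, against 46.8%.

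The wider pathway was read from promoter peaks of 43 further genes. Of these, 39 (90.7%) had a promoter peak in all 7 lists, against 46.7% of 22238 protein-coding genes. All 10 regulators had one, including Cul3 and Rbx1, which form the ubiquitin ligase with KEAP1, and Bach1, a repressor at AREs, and so did all genes of the thioredoxin (5), NADPH (6) and iron and heme (5) groups. Glutathione genes had one in 10 of 11 cases, with no promoter peak in any list at Gpx2, a gut-type glutathione peroxidase. Among 6 detoxification and export genes, 3 had one in all 7, Cbr1 had none, and the others had a normoxia peak that was missing at some hypoxia time: Aldh3a1 at 36 h only, and Ephx1, microsomal epoxide hydrolase, at 6, 24, 36 and 48 h.

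Of the 48 shared promoter regions of these 43 genes, 1 was called higher and none lower, against 1.83% called higher and 0.919% called lower of the 10337 shared promoter regions, so the share called was near the background. The called promoter was that of Sqstm1, which encodes p62, an autophagy receptor that draws KEAP1 away from NRF2. Its enrichment was 4.42, 4.52, 4.47, 3.88, 4.22 and 3.78 at 6 to 72 h, against 2.83 in normoxia, so that all 6 hypoxia lists were above normoxia, with a mean centred ratio of 0.77. The median over the 48 regions was -0.05, with 25 of 48 below 0. By group the medians ran from -0.075 for glutathione genes to 0.08 for iron and heme genes, against -0.03 over all shared promoter regions.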

How the data were processed

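Bulk ATAC-seq of 4T1 cells (14 samples, 7 groups of 2) was used as 7 peak lists. The authors mapped reads to mm9 (Bowtie2 2.1.0), dropped duplicates (Picard 1.79), pooled replicates and called narrow peaks in MACS2 (no version named in the sources used here). The lists reach down to a -log10 q of 1.30, looser than the methods state. Deposited fold values are ratios of reads at a summit over the local expectation of the same list, each with the added read described above. The deposited significance columns hold -log10 p and -log10 q, with no scaling between lists. Read totals per sample were not used here.

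Peaks were merged into regions, and the peak with the highest -log10 q stood for a list in a region. Reads and background at each summit were recovered from the deposited fold and -log10 p, and every summit was solved. All chromosomes of the lists were found in NCBIM37, and no region ran past a chromosome end. Genes came from the GENCODE annotation of that build. Regions, recovery, centring and motif search were tested on simulated data. Named were all 9 genes with their promoter, their strongest other region and any region called or present in all hypoxia lists or normoxia only. Other regions in the text were chosen after their values were seen. The genes, lists and motifs were chosen with earlier results of these data known. Alternatives were -log10 q of 2 and 5, the 20000 strongest peaks per list, merging within 200 bp, summits within 250 bp, 10 kb windows, 5 kb promoters, recovered reads, centring on the 1001 regions nearest in strength, no centring, and leaving out each hypoxia list. Python 3.11.15, numpy 2.4.6, pandas 2.3.3 and scipy 1.17.1 were used.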

Additional observations from a re-analysis of the deposited data

How the results depend on the processing

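No paired analysis was possible because the lists pool both replicates. Of 91 counts and medians under alternatives, 77 stayed within 1.5 times or within counting error. So did 242 of 243 values of single regions, the exception being the Txnrd1 promoter (-0.67 in reads). Counting error is wide where reads are few, so the Keap1 promoter counts as staying although its mean changed sign. Most single-region alternatives left out 1 hypoxia list and reused the others, so this count is no measure of stability. With the 20000 strongest peaks per list, the 55 regions fell to 25, those in all 7 lists to 13, those in hypoxia only to 5, and genes with a promoter peak in all 7 lists to 5, while 2 regions were in all 6 hypoxia lists only and 2 in normoxia only. With summits within 250 bp of the strongest summit, genes with a promoter peak in all 7 lists fell from 9 to 6. Regions in all 7 lists fell from 27 to 24. Both changes count as staying within 1.5 times. Where a region dropped out, its ratios compare summits at different positions. Without the 6 h list, an alternative chosen after seeing the data, 3 regions were in every remaining hypoxia list and not in normoxia. In recovered summit reads 2 regions were higher and 2 lower, and the mean changed sign in 4 of 27 regions, none of them called: the Keap1 promoter (0.49), the Nfe2l2 promoter (-0.19) and the Slc7a11 regions at 13.1 kb upstream (-0.02) and 46.6 kb (0.04). Without centring 2 were lower (the Slc7a11 promoter and the Srxn1 region at 6.64 kb), and the median over the 27 regions was -0.21. Leaving out the 12, 48 or 72 h list gave 1 lower region each. The cause of these shifts was not tested, other than that fewer peaks were kept with the 20000 strongest. Shares over all regions were not counted under these alternatives, so their counts have no background beside them. Normoxia had the lowest background depth and the 6 h list the highest, which limits what an absent peak shows.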
